A study of Mus musculus with 20 samples.

Results

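Fibrinogen and acute phase genes were followed through kidney cortex RNA of mice as 6 genes, *Fga*, *Fgb*, *Fgg*, *Lrg1*, *C3* and *Hp*, out of the 43430 genes counted in each library. They were chosen by symbol, and with values of these same libraries in view: 1 library of 1 group, WT MAT2Ai replicate 2, and to a lesser degree WT MAT2Ai replicate 3, had drawn attention to them. Levels in that group are therefore a description, with no test, and the genes were tested only between groups that do not include it. All 6 genes were found, and 5 of them passed a filter on low counts that left 16152 genes for testing. *Fgb* did not pass it. A gene could pass through the WT MAT2Ai group alone.

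The mice were male C3H/HeJ, a strain known to carry a defective *Tlr4*, and were young adults when the diet began, and all 20 were fed a high fat diet (HFD). WT mice had intact *Slc5a2*, which encodes SGLT2, the glucose transporter of the early proximal tubule, while SP (Sweet Pee) mice carried a germline missense mutation of it. After 8 weeks of HFD they were injected intraperitoneally 3 times a week for 8 more weeks with placebo (DMSO) or with a MAT2A inhibitor (MAT2Ai, 10 mg/kg), a drug against the enzyme that makes S-adenosylmethionine from methionine. The 4 groups, WT placebo, WT MAT2Ai, SP placebo and SP MAT2Ai, each had 5 libraries from 5 mice. Mice on normal chow were not analysed here.

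Fibrinogen is a plasma protein built from paired alpha, beta and gamma chains, encoded by *Fga*, *Fgb* and *Fgg*. Thrombin turns it into fibrin, the mesh of a clot. Hepatocytes are its main source, and in the acute phase response interleukin-6, acting through STAT3 and C/EBP factors, raises its transcription there, along with that of other plasma proteins. Injured tubular epithelium of the kidney is also known to transcribe fibrinogen chains. *Lrg1* encodes leucine-rich alpha glycoprotein, which modulates TGF-beta signalling in vessels, *C3* the central component of complement, and *Hp* haptoglobin, which binds free haemoglobin.

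The 3 fibrinogen genes lie side by side in the mm10 genome, in an order of *Fgg* (ENSMUSG00000033860, chromosome 3, 83007724 to 83015049, plus strand), *Fga* (ENSMUSG00000028001, 83026076 to 83033627, plus strand) and *Fgb* (ENSMUSG00000033831, 83040141 to 83049863, minus strand). *Lrg1* (ENSMUSG00000037095, 56119678 to 56122001) and *C3* (ENSMUSG00000024164, 57203970 to 57228136) are both on the minus strand of chromosome 17. *Hp* (ENSMUSG00000031722, 109575128 to 109579172, minus strand) is on chromosome 8. Exons of *Fgg* overlap the antisense noncoding gene *Gm30097*. Its level was at most 0.575 CPM (counts scaled to a common library size), in WT MAT2Ai replicate 2, against 568 CPM of *Fgg* in the same library.

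RefSeq promoters (GRCm38.p6) were matched for 5 of the 6 genes, and the 250 bases before each start were searched on both strands for 4 motifs of acute phase factors. The STAT3 motif TTCNNNGAA was found in *Fga* and *Fgb*, and 7.02% of the 32851 promoters of the table hold it. The C/EBP motif TTNNGNAA was found once in *Fga*, 2 times in *Fgb* and 3 times in *C3*, and 36.8% of all promoters hold it. The promoters of these 3 genes are shown because they hold matches, which stand in capitals, on the strand of the gene. Positions count back from the RefSeq start, which for *Fga* (83026153) lies 77 bases inside the gene as GENCODE gives it, so its sequence is shown only up to the GENCODE start. That of *Lrg1* lies 55 bases inside. The windows of *Fga* (chr3:83025903-83026075, plus strand) and *Fgb* (chr3:83049864-83050113, minus strand) hold the STAT3 matches at positions -234 to -226 and -162 to -154, and that of *C3* (chr17:57228137-57228386, minus strand) holds C/EBP matches only.
Fga: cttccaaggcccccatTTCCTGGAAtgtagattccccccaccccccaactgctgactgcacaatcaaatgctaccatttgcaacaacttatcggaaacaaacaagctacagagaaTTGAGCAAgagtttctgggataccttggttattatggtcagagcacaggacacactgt
Fgb: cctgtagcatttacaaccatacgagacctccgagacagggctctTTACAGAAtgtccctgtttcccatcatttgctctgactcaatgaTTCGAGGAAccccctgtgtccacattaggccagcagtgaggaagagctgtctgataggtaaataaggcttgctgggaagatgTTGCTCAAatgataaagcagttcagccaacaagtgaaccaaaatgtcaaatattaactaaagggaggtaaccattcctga
C3: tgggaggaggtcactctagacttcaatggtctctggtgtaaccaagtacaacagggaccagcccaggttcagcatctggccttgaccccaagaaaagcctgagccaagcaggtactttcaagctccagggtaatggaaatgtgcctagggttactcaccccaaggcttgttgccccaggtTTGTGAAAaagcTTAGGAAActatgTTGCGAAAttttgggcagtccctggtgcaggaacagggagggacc
No match of either motif was found in the same window of *Fgg* or *Lrg1*. An HNF1 motif of 13 letters, present in 0.00913% of promoters, and an NF-kB site, present in 3.90%, were found in none of the 5. No match overlapped another. A match in letters does not show a bound site.

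The libraries held 53296824 to 79339949 counts in genes. Along the leading principal component (20.5% of the variance), scores were -89.7, -21.8 and -19.4 for WT MAT2Ai replicates 2, 3 and 4, and the other 17 lay between -6.00 and 22.8. Proximal tubule markers summed to 12609 to 16361 CPM in 19 libraries and to 9760 in WT MAT2Ai replicate 2. *Slc5a2* itself went against the label in 2 libraries. It stood at 241 and 282 CPM in those labelled SP placebo replicates 1 and 2, against 40.2 to 85.9 in the other 8 SP libraries and 229 to 518 in the WT libraries. Fold changes of the 5 genes past the filter that use SP placebo are given with and without these 2.

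The alpha chain gene *Fga* was expressed in every library. Its levels were 13.03, 11.3, 11.9, 14.3 and 8.69 CPM in the 5 WT placebo libraries in order of replicate, and 12.5, 1619, 64.4, 29.8 and 10.2 CPM in WT MAT2Ai. In SP placebo it stood at 10.3, 7.81, 8.89, 14.9 and 14.4 CPM, and in SP MAT2Ai at 11, 31.6, 30.7, 12.7 and 12.5 CPM. WT MAT2Ai replicate 2 was thus 137 times the WT placebo mean, replicate 3 was 5.44 times it and replicate 4 was 2.52 times it, while replicates 1 and 5 lay within the WT placebo range. SP MAT2Ai replicates 2 and 3 were above all 10 placebo libraries.

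*Fgb*, the beta chain gene, was nearly absent from these kidneys. Its counts were 1, 21, 1, 0 and 0 in WT placebo, 1, 2197, 85, 2 and 0 in WT MAT2Ai, 0, 0, 0, 0 and 1 in SP placebo and 16, 9, 0, 0 and 0 in SP MAT2Ai. In all, 10 libraries had no count, which allows a level of up to 0.0386 to 0.0522 CPM (3 counts, counting error only), and 15 had 3 counts or fewer. WT MAT2Ai replicate 2 stood at 34.1 CPM and replicate 3 at 1.22 CPM. The WT placebo mean was 0.0695 CPM, nearly all from its replicate 2, and 0.00878 CPM over the other 4 libraries, which held 2 counts in all, so no fold is given. The highest of the other 18 libraries was WT placebo replicate 2, at 0.312 CPM.

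*Fgg*, the gamma chain gene, was low and even outside 3 libraries. It stood at 1.14, 1.32, 1.75, 1.25 and 1.53 CPM in WT placebo, and at 1.29, 568, 16.2, 2.63 and 0.957 CPM in WT MAT2Ai. SP placebo libraries held 1.16, 1.36, 1.05, 1.28 and 1.20 CPM, and SP MAT2Ai libraries 1.19, 1.96, 1.27, 1.04 and 1.45 CPM. WT MAT2Ai replicate 2 was 406 times the WT placebo mean, replicate 3 was 11.6 times and replicate 4 was 1.88 times. The WT MAT2Ai group also held the lowest of all 20 libraries, replicate 5, so its range enclosed those of the 3 other groups.

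*Lrg1* followed the same order of libraries. It stood at 4.32, 4.15, 3.93, 2.56 and 4.03 CPM in WT placebo, and at 3.77, 254, 9.50, 7.62 and 3.20 CPM in WT MAT2Ai. SP placebo libraries held 4.14, 4.58, 3.55, 4.69 and 3.74 CPM, and SP MAT2Ai libraries 4.34, 6.18, 5.18, 3.90 and 3.26 CPM. Replicates 2, 3 and 4 of WT MAT2Ai were the highest of the 20, at 66.8, 2.5 and 2.01 times the WT placebo mean.

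*C3* varied between libraries in both groups given MAT2Ai. It stood at 52.0, 56.1, 37.0, 28.1 and 35.1 CPM in WT placebo, and at 112, 745, 67.0, 28.4 and 53.6 CPM in WT MAT2Ai. SP placebo libraries held 39.8, 27.5, 27.2, 32.8 and 29.3 CPM, and SP MAT2Ai libraries 17.7, 110, 43.5, 67.4 and 20.5 CPM. Replicate 2 of WT MAT2Ai was 17.9 times the WT placebo mean, but the next libraries in order were WT MAT2Ai replicate 1 and SP MAT2Ai replicate 2, not WT MAT2Ai replicate 3. Replicate 4, above the WT placebo range for *Fga*, *Fgg* and *Lrg1*, was at 0.682 times the WT placebo mean for *C3*.

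*Hp* did not set WT MAT2Ai replicate 2 apart. It stood at 1.25, 2.71, 0.954, 0.166 and 1.08 CPM in WT placebo, and at 0.553, 2.44, 3.20, 1.79 and 1.11 CPM in WT MAT2Ai. SP placebo libraries held 0.775, 0.838, 0.469, 0.146 and 0.640 CPM, and SP MAT2Ai libraries 1.11, 0.949, 1.20, 0.540 and 0.259 CPM. Replicate 2 was 1.98 times the WT placebo mean and lay below WT placebo replicate 2, while replicate 3 was the highest of the 20 libraries, at 2.59 times. Of the summed CPM of the 5 WT MAT2Ai libraries, replicate 2 gave 93.3% for *Fga*, 96.4% for *Fgb*, 96.4% for *Fgg*, 91.3% for *Lrg1* and 74.1% for *C3*, but 26.8% for *Hp*.

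**Figure D1:**
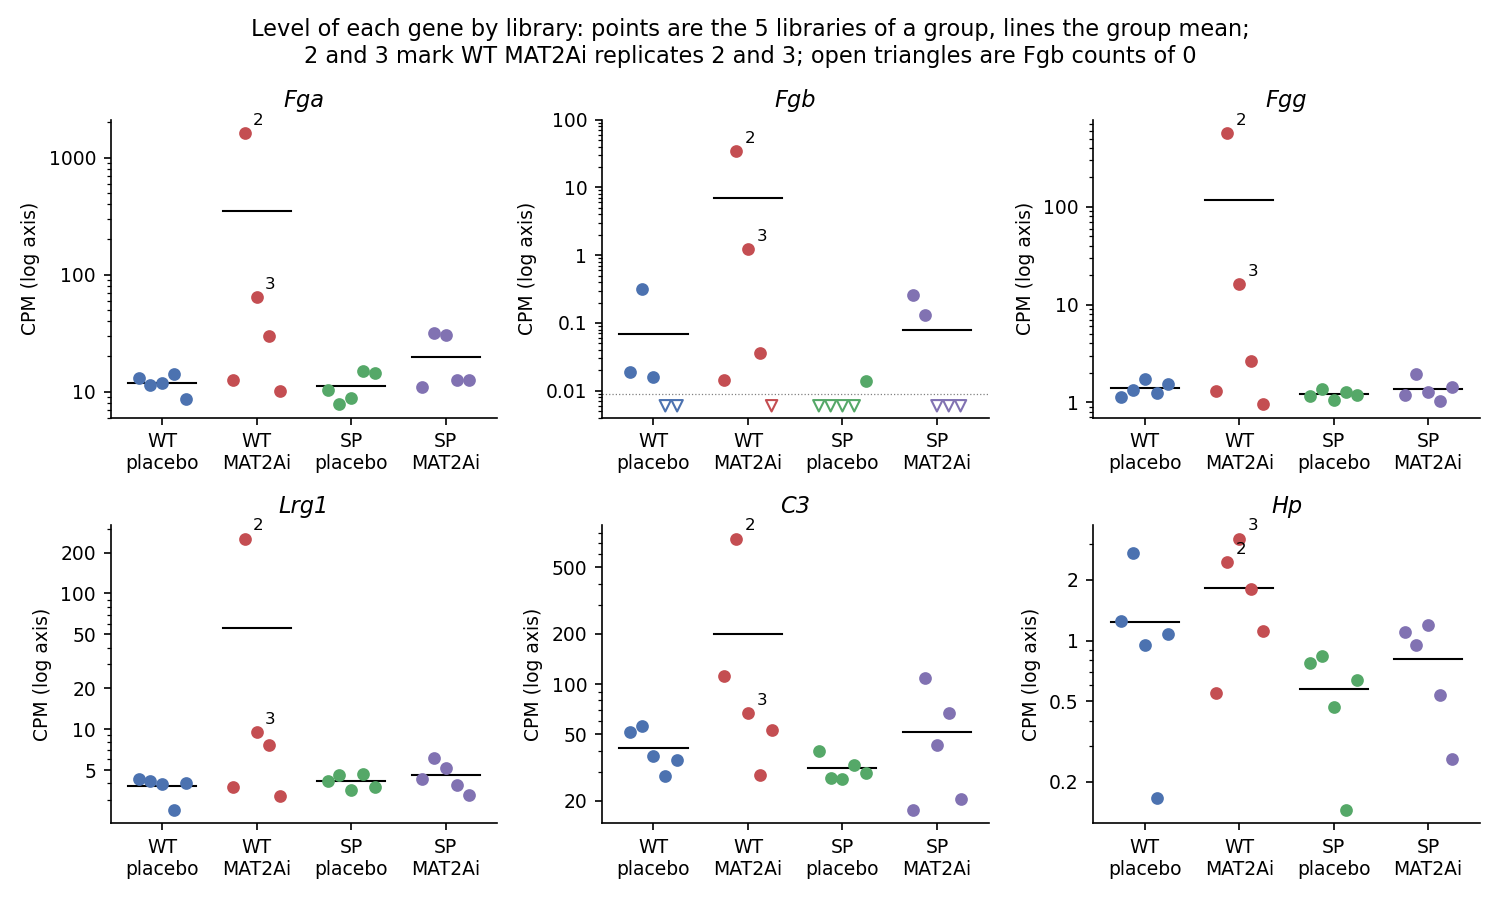
Level of each of the 6 genes in CPM on log axes, 1 point per library, with a line at the mean of the 5 libraries of a group and open triangles for *Fgb* counts of 0. WT MAT2Ai replicate 2, marked 2, stands at 1619 CPM for *Fga*, 34.1 for *Fgb*, 568 for *Fgg*, 254 for *Lrg1* and 745 for *C3*, above every other library, but not for *Hp*, where replicate 3 is highest at 3.20 CPM.

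Group means followed from these few libraries. For *Fga* the mean was 347 ± 711 CPM in WT MAT2Ai (SD, n = 5), 19.7 ± 10.5 in SP MAT2Ai (n = 5), 11.8 ± 2.09 in WT placebo (n = 5) and 11.3 ± 3.23 in SP placebo (n = 5). Without WT MAT2Ai replicates 2 and 3 the WT MAT2Ai mean was 17.5 ± 10.7 CPM (n = 3), below that of SP MAT2Ai. For all 6 genes, every pair of groups next to each other in the order of means overlapped in range, with and without those 2 replicates.

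The 3 chains are joined in equal numbers in the protein, so their transcripts were compared per kilobase of exon. In the 18 libraries other than WT MAT2Ai replicates 2 and 3, *Fga* held 2.60 to 10.5 CPM per kb, *Fgg* 0.457 to 1.26 and *Fgb* at most 0.0820. The level of *Fga* per kb was 3.95 to 16.9 times that of *Fgg* there, with a median of 7.06. In WT MAT2Ai replicate 2 the levels were 538 CPM per kb for *Fga*, 271 for *Fgg* and 8.96 for *Fgb*, and in replicate 3 they were 21.4, 7.76 and 0.321. The alpha to gamma ratio was thus lower in these 2 libraries than in any other, at 1.98 and 2.76. The alpha to beta ratio was 60.1 and 66.7. *Fgb* therefore stayed the scarcest of the chains even where all 3 were high. Per kb of exon, *C3* was the highest of the 6 genes by median over the 18 libraries, at 7.01 CPM per kb, followed by *Fga* at 4.16, *Lrg1* at 2.90, *Fgg* at 0.609 and *Hp* at 0.556, with *Fgb* at 0.

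**Figure D2:**
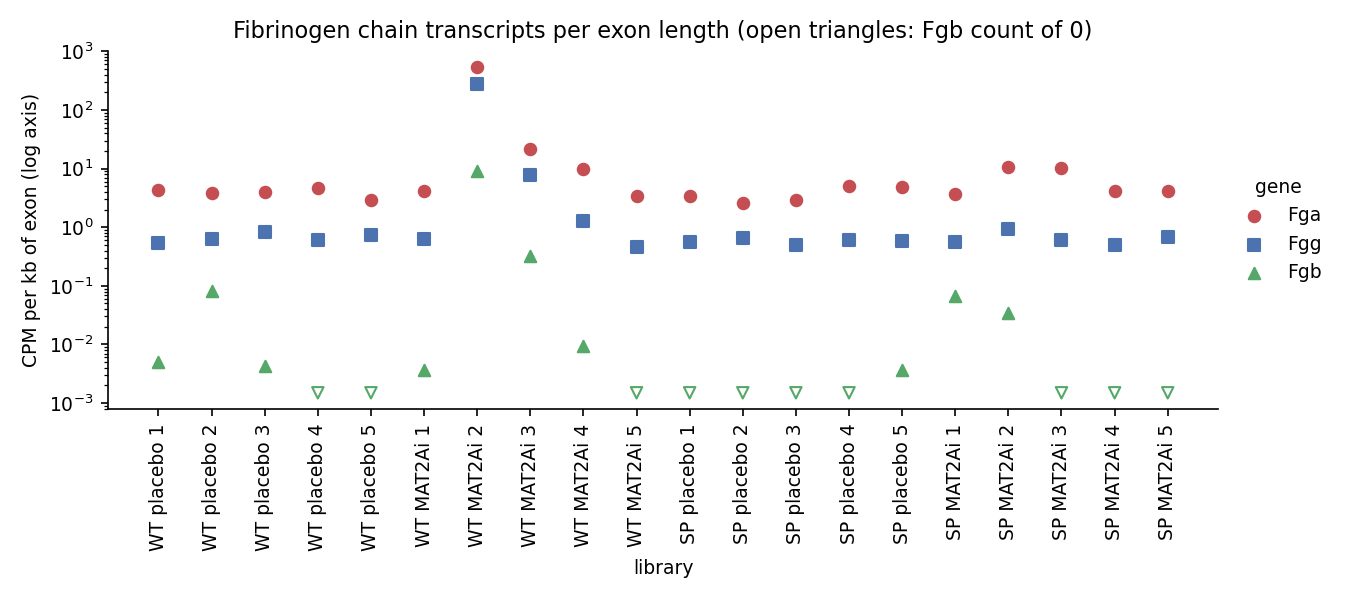
Transcripts of the 3 fibrinogen chains in CPM per kilobase of exon on a log axis, 1 column per library, with open triangles for *Fgb* counts of 0. *Fga* lies above *Fgg*, and *Fgg* above *Fgb*, in every library, and the gap between *Fga* and *Fgg* is narrowest in WT MAT2Ai replicate 2, at a ratio of 1.98.

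Whether MAT2Ai changed these genes in WT mice was described from the fit, without a test, since this group had been used to choose them. The log2 fold change of WT MAT2Ai over WT placebo was 6.39 ± 1.37 (SE) for *Fgg*, 4.87 ± 1.09 for *Fga*, 3.87 ± 0.93 for *Lrg1*, 2.27 ± 0.68 for *C3* and 0.56 ± 0.55 for *Hp*. Their median was 3.87, and that of all tested genes 0.01. Without replicate 2 the values were 1.91 for *Fgg*, 1.30 for *Fga*, 0.66 for *Lrg1*, 0.64 for *C3* and 0.43 for *Hp*. Without replicates 2 and 3 they were 0.21 ± 0.27, 0.56 ± 0.37, 0.35 ± 0.24, 0.63 ± 0.46 and -0.11 ± 0.62. The difference between the groups of WT mice thus lay largely in 1 of 5 mice treated with MAT2Ai, and in part in a second. In this comparison 0% of the 16152 genes passed an adjusted p of 0.05, and 15.7% had an unadjusted p under 0.05, 10.4% being higher and 5.36% lower.

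In SP mice none of the 5 genes that could be tested passed the threshold. The genes had been chosen with earlier results of these data known, so this test is not fully independent of the choice. The log2 fold change of SP MAT2Ai over SP placebo was 0.81 ± 0.95 for *Fga* (edgeR, adjusted p = 0.986), 0.72 ± 0.66 for *C3* (adjusted p = 0.983), 0.49 ± 0.58 for *Hp* (adjusted p = 0.986), 0.19 ± 1.32 for *Fgg* (adjusted p = 0.996) and 0.14 ± 0.87 for *Lrg1* (adjusted p = 0.996). None had an unadjusted p under 0.05, where 5.92% of all genes did, and DESeq2, which gave a p for *C3* and *Hp* only, called 0 where it called 0.168% of all genes. Over all genes 0.0186% were called by edgeR, and a count of 0 of 5 is near that background. The fit shares 1 estimate of each gene's spread over all 20 libraries, WT MAT2Ai replicate 2 included. When WT MAT2Ai replicates 2 and 3 were left out, *Fga* was higher by 0.80 ± 0.32 at an unadjusted p of 0.0226, still with an adjusted p of 0.533, and *Fgg* by 0.19 ± 0.23. Without the libraries labelled SP placebo replicates 1 and 2 the values were 0.64 for *Fga*, 0.81 for *C3*, 0.95 for *Hp*, 0.24 for *Fgg* and 0.20 for *Lrg1*, all with an adjusted p of 1.0. In RNA of whole cortex, more cells of a kind and more transcript per cell cannot be told apart.

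SP placebo was compared with WT placebo to ask what loss of SGLT2 did on HFD alone. The log2 fold change was -0.07 ± 0.96 for *Fga*, -0.21 ± 1.33 for *Fgg*, 0.12 ± 0.88 for *Lrg1*, -0.41 ± 0.66 for *C3* and -1.10 ± 0.58 for *Hp*, all with an adjusted p of 1.0. The smallest unadjusted p was that of *Hp*, 0.0698, so 0 of 5 were under 0.05 by edgeR. DESeq2 gave *Hp* an unadjusted p of 0.0448 and an adjusted p of 0.999. Of all genes 0% were called and 3.75% had an unadjusted p under 0.05. Here too each gene's spread was shared with WT MAT2Ai replicate 2. This widens the errors and weakens the test for *Fga*, *Fgg*, *Lrg1* and *C3*. For *Hp* that library, at 2.44 CPM, lay below WT placebo replicate 2, at 2.71. Within the placebo groups *Fgg* was at 1.21 ± 0.12 CPM (SD) in SP and 1.40 ± 0.24 in WT. *Lrg1* was at 4.14 ± 0.50 CPM in SP placebo and 3.80 ± 0.71 in WT placebo. Without the libraries labelled SP placebo replicates 1 and 2, *Hp* was at -1.56 ± 0.72 (unadjusted p = 0.0436, adjusted p = 0.979) *Fga* changed sign, to 0.10, and *Fgg*, *Lrg1* and *C3* were at -0.26, 0.07 and -0.49. *Fgb* passed the filter in 17 fits with libraries left out, and with no filter it was at 4.01 ± 3.37 for SP MAT2Ai over SP placebo (adjusted p = 0.833) and -3.96 ± 3.41 for SP placebo over WT placebo (adjusted p = 0.910). No fit called it in either comparison, 0.833 being its lowest adjusted p.

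Between the 2 groups given MAT2Ai all 5 values were negative, and again this is a description. The log2 fold change of SP MAT2Ai over WT MAT2Ai was -6.41 ± 1.37 for *Fgg*, -4.14 ± 1.05 for *Fga*, -3.60 ± 0.91 for *Lrg1*, -1.96 ± 0.67 for *C3* and -1.17 ± 0.57 for *Hp*. Without WT MAT2Ai replicates 2 and 3 it was -0.23 ± 0.27, 0.17 ± 0.37, -0.09 ± 0.24, -0.32 ± 0.46 and -0.51 ± 0.62. The difference of the treatment effect between genotypes was -6.20 ± 1.83 for *Fgg*, -4.07 ± 1.38 for *Fga*, -3.73 ± 1.24 for *Lrg1*, -1.55 ± 0.93 for *C3* and -0.07 ± 0.81 for *Hp*, and -0.02, 0.25, -0.21, 0.09 and 0.60 without both replicates. Without the libraries labelled SP placebo replicates 1 and 2 it was -6.15, -4.23, -3.66, -1.46 and 0.40. The WT MAT2Ai libraries enter all 3 of these differences.

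**Figure D3:**
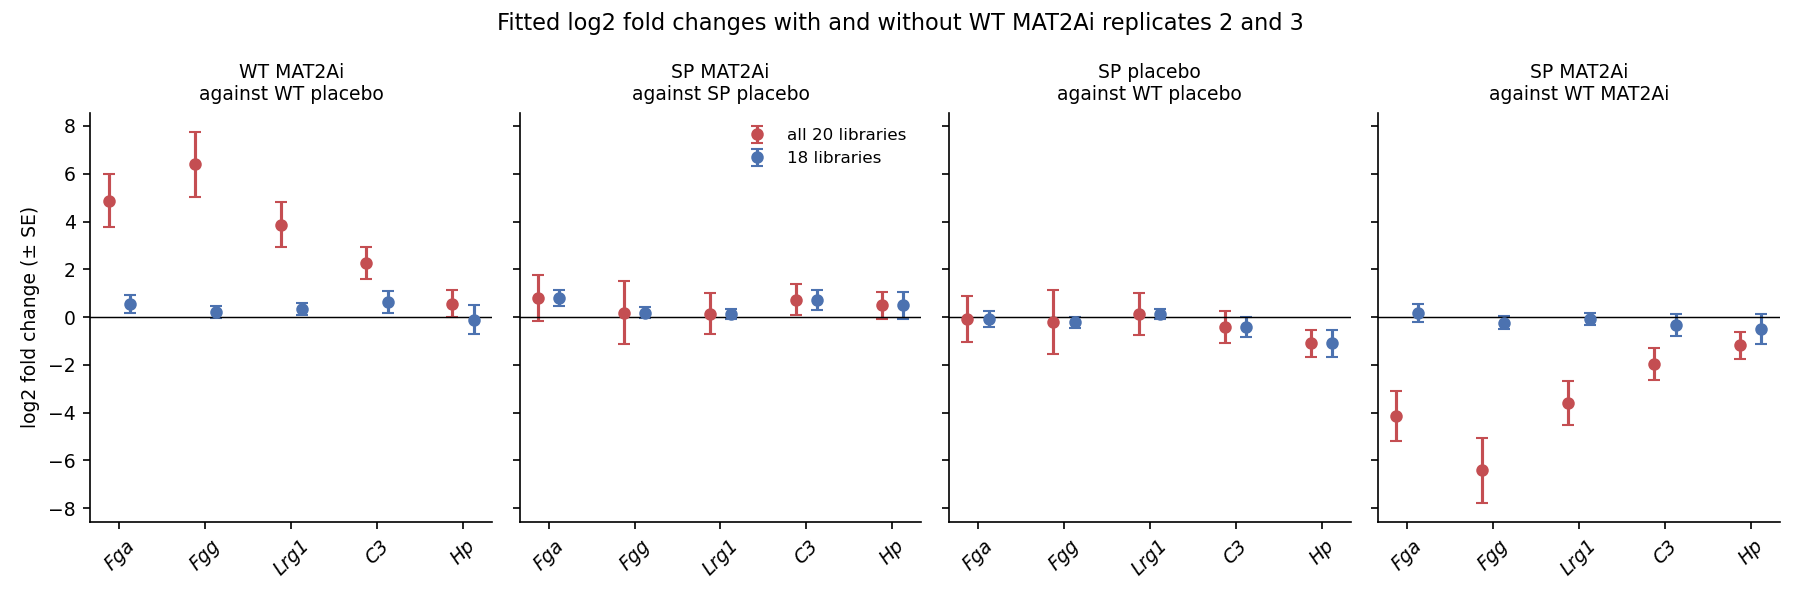
Fitted log2 fold changes ± SE of the 5 genes past the filter in 4 comparisons, from all 20 libraries and from the 18 left without WT MAT2Ai replicates 2 and 3. *Fgg* moves from 6.39 to 0.21 in WT mice, and values of the 2 comparisons without WT MAT2Ai, in the middle, keep their place while the errors of *Fga* and *Fgg* shrink.

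Other acute phase genes, from a list of 22, were high in the same library. In WT MAT2Ai replicate 2, *Saa1* and *Saa2*, which encode serum amyloid A proteins, stood at 69.9 and 7.83 CPM, against at most 2.22 and 0.23 in the others, where the highest was WT MAT2Ai replicate 3 for both. *Lcn2*, an iron-binding lipocalin of injured tubules, stood at 676 CPM there, at 19.4 in replicate 3 and at no more than 5.01 elsewhere. *Serpina3n*, a protease inhibitor, stood at 15.8 CPM against at most 1.47. Haemopexin (*Hpx*), which clears haem and so works beside haptoglobin, stood at 7.98 CPM against at most 0.54, while *Hp* was at 2.44 CPM in that library. Of the 13 genes of the list that were tested, 12 had a positive log2 fold change in WT MAT2Ai over WT placebo, with a median of 1.99, and of 0.14 without replicate 2. None passed the adjusted test and 8 were higher at an unadjusted p under 0.05, as were 10.4% of all genes. DESeq2 called 3 higher, where it called 1.27% of all genes, 0.95% being higher and 0.323% lower. The 4 with the smallest p were *Lcn2* (6.40 ± 1.38, adjusted p = 0.129), *Serpina3n* (4.16 ± 1.05, adjusted p = 0.147), *Saa3* (5.05 ± 1.29, adjusted p = 0.148) and *Spp1*, which encodes osteopontin (2.21 ± 0.60, adjusted p = 0.155). *Saa3* was at 3.37 without replicates 2 and 3, whereas *Lcn2* was then at 0.82. That value of *Saa3* came mostly from WT MAT2Ai replicate 4, against levels near 0 in WT placebo. Its log2(CPM + 0.1) lay 2.62 above the WT placebo mean there, and 0.09 and 0.76 above it in replicates 1 and 5. The lists here and below were set with earlier results of these data known. Their counts in comparisons that use WT MAT2Ai are thus a description and no separate support.

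**Figure D4:**
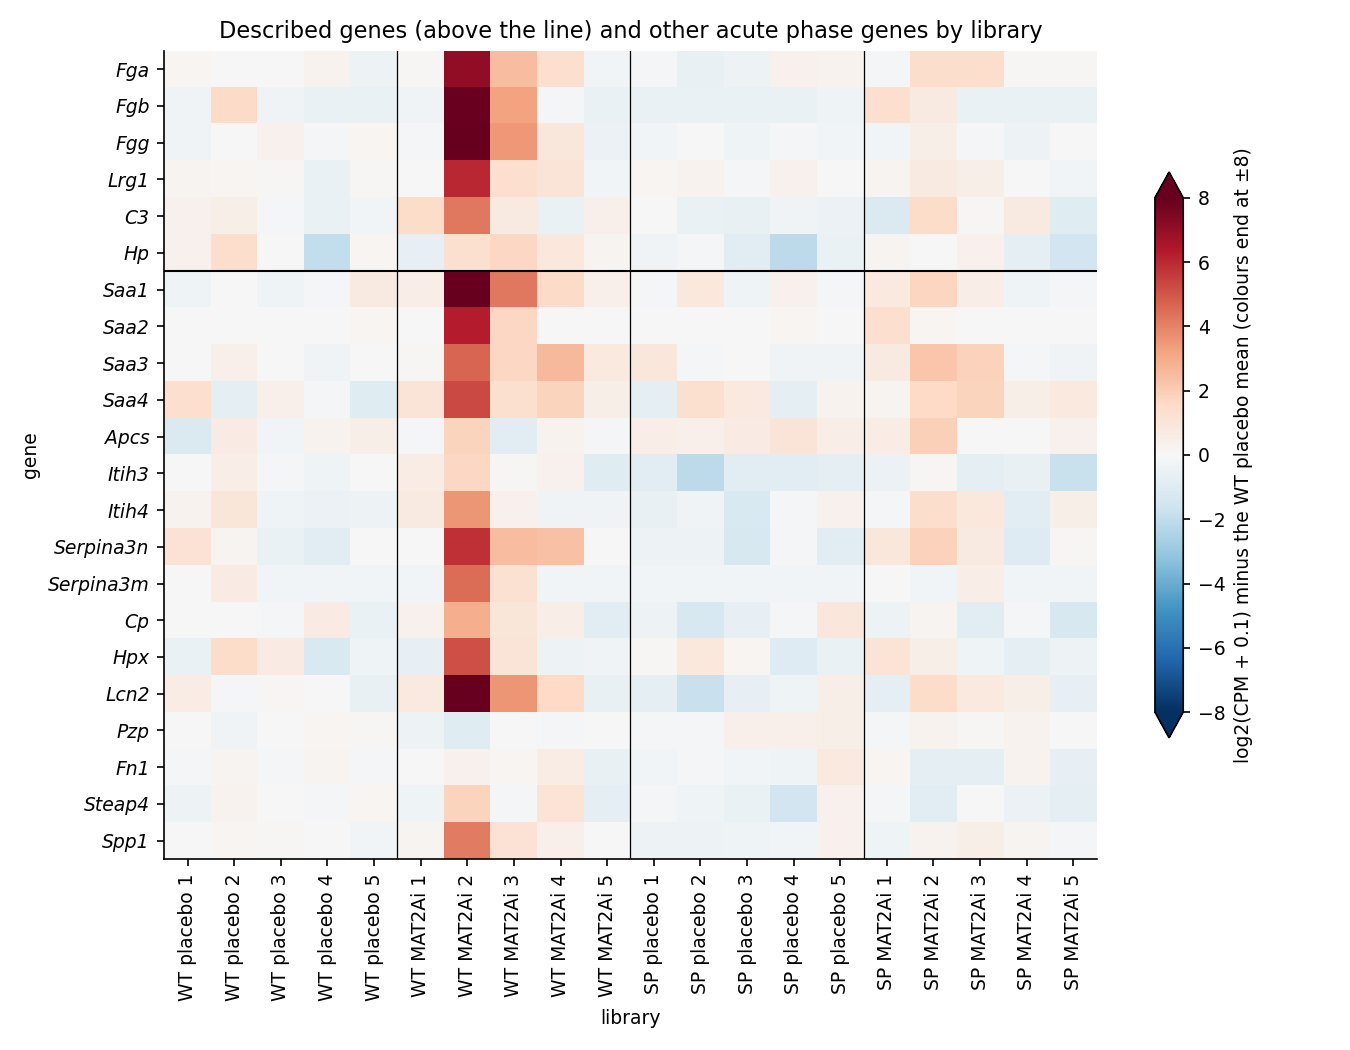
Difference of log2(CPM + 0.1) from the WT placebo mean for the 6 genes, above the line, and 16 other acute phase genes that reached 1 CPM in some library, 1 column per library. The column of WT MAT2Ai replicate 2 is the darkest, with *Fgg* at 8.58, *Lcn2* at 8.62 and *Saa1* at 9.12, beyond the end of the colour scale, and *Hp* at 1.28, while *Pzp* is below 0.

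Genes that drive or sense the acute phase signal were high there in part. *Il6* did not pass the filter and reached 0.155 CPM in WT MAT2Ai replicate 2, its highest level. The receptor chain *Osmr*, for oncostatin M, stood at 26.2 CPM against at most 10.8 elsewhere, and *Socs3*, a feedback inhibitor of STAT3 signalling, at 28.2 against at most 11.3, each next highest in WT MAT2Ai replicate 4. *Stat3* stood at 186 CPM against at most 107, with SP MAT2Ai replicates 2 and 3 next. Of the list's 20 tested genes, 16 were positive in WT MAT2Ai over WT placebo (median 0.46), and 10 were higher and 1 lower at an unadjusted p under 0.05. Of all genes, 10.4% were higher and 5.36% lower at that p. EdgeR called 0 of the list and DESeq2 1, where they called 0% and 1.27% of all genes. Among those with the smallest p were *Cebpb* (1.53 ± 0.41) and *Cebpd* (1.77 ± 0.52), C/EBP factors of the acute phase, and the cytokine *Lif* (2.55 ± 0.83), with adjusted p from 0.155 to 0.184. Without WT MAT2Ai replicate 2 they were at 0.84, 1.12 and 0.40, and the list's median was 0.24. What was left of *Cebpb* and *Cebpd* lay in WT MAT2Ai replicate 4, at 74.9 and 37.6 CPM. Replicates 1, 3 and 5 held at most 25.9 and 7.54 CPM, against at most 29.5 and 9.97 in WT placebo. Of 5 tested liver factors of acute phase promoters, 1 was positive with a median of -0.04, against 4 and 0.01 without WT MAT2Ai replicate 2, and neither tool called any.

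Complement and clotting genes around *C3* and fibrinogen were mixed. Of 28 tested complement genes, 18 were positive in WT MAT2Ai over WT placebo (median 0.13). *C4b*, the complement component that acts just before *C3*, stood at 248 CPM in WT MAT2Ai replicate 2, at 212 in WT MAT2Ai replicate 5 and at 166 in SP MAT2Ai replicate 2, against 10.5 to 39.6 elsewhere, so its high libraries were shared only in part with *C3*. Of 27 coagulation and fibrinolysis genes 15 were positive (median 0.10), while *F13b*, a subunit of the factor that crosslinks fibrin, was at -0.32 ± 0.10 (adjusted p = 0.181). No gene of either list was called by edgeR or by DESeq2. At an unadjusted p under 0.05, 8 of 28 complement genes were higher and 0 lower, and 7 of 27 clotting genes were higher and 3 lower, where 10.4% of all genes were higher and 5.36% lower. Of 12 receptors of these proteins 8 were positive (median 0.02), edgeR called 0 with 1 higher and 1 lower at an unadjusted p under 0.05, and DESeq2 called 1, which was lower.

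In SP MAT2Ai over WT MAT2Ai, 1.84% of all genes were called. Of all genes, 0.644% were called higher and 1.2% lower. The lists held 22 acute phase, 24 signalling, 9 liver factor, 30 complement, 33 clotting and 14 receptor genes. Marker lists held 18 hepatocyte, 11 neutrophil, 9 macrophage, 8 platelet, 15 injury and 12 proximal tubule genes. Some genes were on more than 1 list or below the filter, so no share is given for them together. Over all lists, cell markers included, 18 genes were lower and 2 higher. Those lower in the acute phase, signalling, complement and clotting lists included *Lcn2* (-5.90 ± 1.34, adjusted p = 0.0399), *Osmr* (-1.56 ± 0.38, adjusted p = 0.0440), the C1q subunit *C1qb* (-0.93 ± 0.19, adjusted p = 0.0311) and the urokinase receptor *Plaur* (-1.44 ± 0.25, adjusted p = 0.0226). Also lower there were *Il1r1*, *C1qc*, *C1ra*, *Cfd*, *Serping1*, *Anxa2* and *Serpine2*, by 0.62 to 6.25 on the log2 scale. The largest value, that of *Cfd*, rests on few libraries and on levels near 0. *Cfd* stood at 0, 0.016, 5.11, 0.746 and 1.77 CPM in WT MAT2Ai and at most 0.049 in SP MAT2Ai. WT placebo replicate 2 held 1.49 CPM of it. The markers that were lower were the macrophage gene *Cd68*, the injury genes *Krt20*, *Sox9* and *Timp1*, and the antitrypsin genes *Serpina1a* and *Serpina1b*, near-identical copies whose counts are uncertain. *Slc22a6*, an anion transporter of the proximal tubule, was higher (0.55 ± 0.11, adjusted p = 0.0266). None of the 20 calls stood without WT MAT2Ai replicates 2 and 3 together, nor without SP MAT2Ai replicate 2, 3 or 5, while 2 stood without SP MAT2Ai replicate 1 and 10 without WT MAT2Ai replicate 2.

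Cells other than tubules that carry these transcripts were looked for through their markers. Hepatocyte markers, 18 genes, summed to 492 CPM in WT MAT2Ai replicate 2, within the range of the others, 245 to 816 CPM, much of it from *Ttr*, at 168 to 712 CPM in all libraries. *Alb* was at 9.60 CPM there, against 8.33 to 24.8 in the others, and *Apoa1* was at 4.54 against 0.087 to 5.70. For 4 of the 18 it was the highest of the 20 libraries. These were *Serpina1a* at 97.4 CPM (at most 40.1 elsewhere), *Serpina1b* at 53.7 (24.9), *Apoc3* at 11.8 (6.11) and *Apoh* at 53.4 (41.2). Of the 18, 8 lay below the filter (*Ahsg*, *Tat*, *Tdo2*, *Cps1*, *Mup3*, *Mup20*, *Cyp2c29* and *Arg1*, a subset taken after their values were seen), and their sum was 0.109 CPM in WT MAT2Ai replicate 2 and 0.0288 in replicate 3, with 5 and 6 of the 8 at 0. The same sum was 1.77 CPM in WT placebo replicate 2 and 1.79 in SP MAT2Ai replicate 1, and at most 0.472 elsewhere. These 2 libraries were the highest over the 8 markers and the next highest in *Fgb* after WT MAT2Ai replicates 2 and 3. Over all 18 markers SP MAT2Ai replicate 1, at 424 CPM, was below WT MAT2Ai replicate 2. The part of liver transcripts in the level of *Fgb* or of the other genes was not tested.

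**Figure D5:**
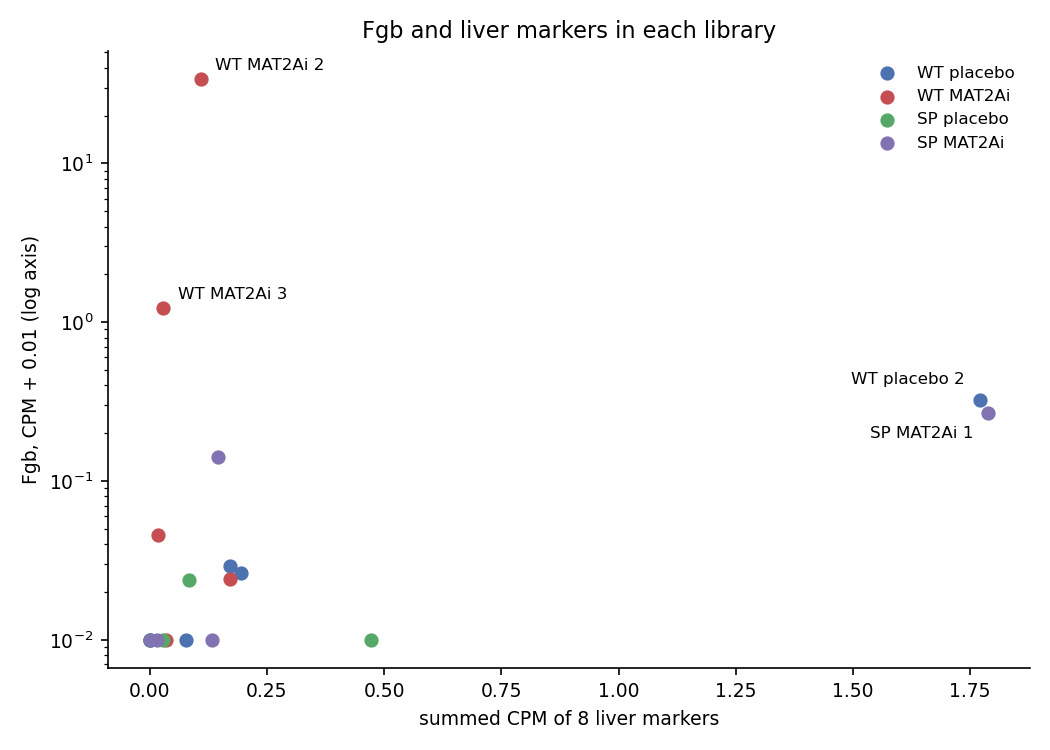
*Fgb* (CPM + 0.01, log axis) against the summed CPM of the 8 liver markers below the filter, 1 point per library, coloured by group. WT MAT2Ai replicate 2 lies at 34.1 CPM of *Fgb* with 0.109 CPM of liver markers, and WT placebo replicate 2 and SP MAT2Ai replicate 1 lie far to the right, at 1.77 and 1.79 CPM, with 0.312 and 0.260 CPM of *Fgb*.

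Neutrophil and platelet markers were low throughout, with their highest sums in WT MAT2Ai replicate 2. Neutrophil markers, 11 genes, summed to 22.2 CPM in WT MAT2Ai replicate 2 and 1.60 to 19.7 in the others, with *S100a8* at 4.57 and *S100a9* at 8.96 CPM, close to the 4.56 and 8.33 of WT MAT2Ai replicate 4. Platelet markers, 8 genes, summed to 8.51 CPM against 5.10 to 8.13, with *Pf4* at 1.18 and *Ppbp* at 0.932. Macrophage markers, 9 genes, summed to 562 CPM against 40.9 to 94.9, of which *Cd14*, an endotoxin co-receptor that other cells also make, gave 496. *Cd68* was also highest in that library, at 6.45 CPM against at most 2.68. *Adgre1* and *Cx3cr1* were not raised in it, at 0.652 and 0.714 CPM against 0.450 to 2.22 and 0.604 to 4.73. Tubular injury markers, 15 genes, were also high there. They summed to 8513 CPM in WT MAT2Ai replicate 2, to 1031 in replicate 3 and to 490 to 761 in the 3 other groups. *Spp1* gave 4572 of the 8513 CPM, and *Spp1* and *Lcn2* also belong to the acute phase list. All 15 were positive in WT MAT2Ai over WT placebo (median 2.03), 12 of them at an unadjusted p under 0.05, where 10.4% of all genes were higher. EdgeR called 0 and DESeq2 6, where DESeq2 called 1.27% of all genes, 0.95% being higher. Without WT MAT2Ai replicate 2 the median was 0.50 and 14 were positive. The part of tubular injury in the level of the 6 genes was not tested.

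Genes were ranked by how closely they followed the mean log2 CPM of the 3 fibrinogen genes, over the 11846 genes whose log2 CPM averaged 0 or more. Over 20 libraries the chains themselves aside, *Lrg1* ranked first (r = 0.96), followed by *Spp1* (0.96), *Lcn2* (0.95), the zinc carrier *Slc39a6* (0.95), *Cd14* (0.95), the keratin *Krt18* (0.94), the TNF receptor *Tnfrsf1a* (0.94), the proteoglycan *Sdc1* (0.94) and *Plp2* (0.93). *C3* had r = 0.79, at rank 329, and *Hp*, too low to be ranked, r = 0.53. In all, 47 genes were above 0.9. Without WT MAT2Ai replicates 2 and 3, over 18 libraries, no gene was above 0.9. *Tnfrsf12a*, the receptor of the cytokine TWEAK, then came first (0.78), followed by *Rflnb* (0.72), *Phax* (0.72), *Mrpl54* (0.71) and *Rfc3* (0.71), and *Lrg1* was at 0.64 and *C3* at 0.19. The likeness of *Spp1*, *Krt18*, *Sdc1* and *Plp2* thus rested largely on those 2 libraries. Without them r was 0.48, 0.38, 0.28 and 0.28. For *Slc39a6*, *Lcn2*, *Tnfrsf1a* and *Cd14* it fell to 0.54, 0.58, 0.61 and 0.66. These are descriptions over libraries that share their groups. *Fgb* itself had r = 0.85 with the mean over 18 libraries, against 0.64 for *Fga* and 0.62 for *Fgg*. That ranking thus follows *Fgb* more than the other chains, although 15 of those 18 libraries held 3 *Fgb* counts or fewer.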

How the data were processed

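Kidney cortex RNA from 20 mice, 5 in each of 4 groups given by the labels, was analysed as raw counts. Strand-specific libraries had been built from polyadenylated RNA. The authors aligned the trimmed reads to mm10 with STAR and deposited whole-number counts per gene, without scaling. The strand setting of the counting is not given in the sources used here, so *Fgg* and its antisense neighbour may share reads. Symbols and coordinates came from GENCODE M21 for 42462 of 43430 genes, and the 5 summary lines per file were left out. Library totals ranged from 53296824 to 79339949 counts.

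CPM were scaled with TMM factors from the tested genes. The edgeR 4.0.16 quasi-likelihood test (R 4.3.3) was fitted to all 20 libraries with 1 coefficient per group and no covariate, after filterByExpr, with Benjamini-Hochberg adjustment over all 16152 tested genes and a threshold of 0.05. DESeq2 1.42.0, its size factors, no filter, each library left out, 2 pairs of libraries left out and the replicate number as a block were tried as alternatives. The members, lists and tests were chosen with earlier results of these data known. Genes named from a list were those called and up to 4 with the smallest p in that comparison, *Saa1*, *Saa2*, *Hpx*, *Il6*, *Socs3*, *Stat3*, *Osmr* and *C4b* being named for their levels after these were seen, and a few genes that the rule takes are not reported here. Genes named for likeness were the 8 with the highest r over 20 libraries and the 5 with the highest over 18, with log2 CPM at a prior count of 2, passing over predicted models.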

Additional observations from a re-analysis of the deposited data

Results flagged for a closer look

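In 8 of 24 groups of 5 libraries (6 genes in 4 groups), 1 library stood apart from the other 4, its gap to the nearest being over 0.71 of the range of the group. About 1 of 20 groups of normally distributed values would meet this rule, which gives no chance rate for skewed CPM or counts near 0. The values of WT MAT2Ai replicate 2 had drawn attention to these genes, so its flags follow from that choice and are no separate support. That library stood apart for *Fga* at 1619 CPM, for *Fgb* at 34.1 CPM, for *Fgg* at 568 CPM, for *Lrg1* at 254 CPM and for *C3* at 745 CPM. *Hp* was the only 1 of the 6 genes for which it did not. *Fgb* stood apart in WT placebo replicate 2, at 0.312 CPM (21 counts, the others at 0 or 1), the library with the second highest sum of liver markers below the filter. It also did so in the library labelled SP placebo replicate 5, at 0.0139 CPM, which is 1 count against none in the other 4. *Lrg1* stood apart on the low side in WT placebo replicate 4, at 2.56 CPM, the others lying at 3.93 to 4.32 CPM.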

How the results depend on the processing

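Over 26 alternatives for each value, 791 values moved by less than the spread between libraries or stayed on their side of the threshold, and 36 moved by more. In all 21 changed sign, 5 in tested comparisons and 16 in those given without a test, 10 of these being *Hp* in the difference between genotypes. No gene of the 6 was called in SP MAT2Ai over SP placebo or in SP placebo over WT placebo under any of them. The median log2 fold change of the 5 genes past the filter ranged from 0.66 to 4.17 in WT MAT2Ai over WT placebo when 1 library was left out, the lowest without WT MAT2Ai replicate 2, and was 0.35 without replicates 2 and 3 together, against 3.87 in full. In SP MAT2Ai over WT MAT2Ai it ranged from -3.91 to -0.57 and was -0.23 without both, against -3.60. For the difference between genotypes in the effect of MAT2Ai it ranged from -4.03 to -0.50 and was 0.090 without both, against -3.73. The 5 tested values that changed sign were those of *Fga* in SP placebo over WT placebo, at -0.07 in full, which ranged from -0.19 to 0.03 with 1 library left out (0.0039 without WT placebo replicate 4, 0.035 and 0.0015 without the libraries labelled SP placebo replicates 2 and 3), and was 0.10 without SP placebo replicates 1 and 2 together. The cause was not tested.

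The labels do not say whether replicate numbers pair the mice. Libraries with the same number deviated from their group means with a mean correlation of -0.0158 (30 pairs, 4 above 0.1, the highest 0.265). With the replicate block the difference between genotypes had a median of -2.12, *Fga* in SP placebo over WT placebo was at 0.044, *Fga* in WT MAT2Ai over WT placebo was at 2.74 and the called genes of SP MAT2Ai over WT MAT2Ai numbered 88 in place of 298.

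That count ranged from 0, without SP MAT2Ai replicate 3, without replicate 5 or without WT MAT2Ai replicates 2 and 3 together, to 774 with 1 library left out, and was 1203 with DESeq2. DESeq2 called 201 genes in WT MAT2Ai over WT placebo, 27 in SP MAT2Ai over SP placebo, 7 in SP placebo over WT placebo and 1 for the difference between genotypes, against 0, 3, 0 and 0 by edgeR. It gave no p for *Fga*, *Fgg* and *Lrg1*. In most libraries *Fgb* is limited by counts of 0 to 3, and *Hp*, at 0.146 to 3.20 CPM, by levels near 1 CPM.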
